A study of Mus musculus with 2 samples.

Results

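Neat1, Malat1 and Gm26917 are annotated as long noncoding RNA genes, and they were followed here by gene across the cell classes of the mouse omentum, a fatty tissue of the abdomen that carries clusters of leukocytes. They are 3 of the 19960 genes that the deposited tables list. They were selected on levels measured earlier in these same cells, where Neat1 had been higher in 1 of the libraries and Gm26917 had led a group of B2 B cells with few transcripts. Their levels are therefore given as descriptions, with no test. Neat1 and Malat1 were found by symbol, and Gm26917, which the tables list only by its identifier ENSMUSG00000097971, by that identifier.

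Cells of the omentum were sequenced singly in droplets, and transcripts were counted by their unique molecular identifiers (UMIs). The WT library came from wild-type mice, and the Postn-DTR library from mice that carried the diphtheria toxin receptor in 1 copy of Postn, the periostin gene. Both received diphtheria toxin (DT) and were taken 5 days later, so that only in Postn-DTR were cells with an active Postn promoter the target of the toxin. The labels give no age. Each library pooled 3 mice, and there was 1 library per group, so no difference between the groups could be tested and every interval below covers counting error only.

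Neat1 is the RNA scaffold of the paraspeckle, a nuclear body that holds RNA and RNA-binding proteins such as SFPQ and NONO. Malat1 collects in nuclear speckles, where splicing factors are stored, and is among the most abundant noncoding RNAs of mammalian cells. Both stay in the nucleus, and neither is translated, so their share of a cell's transcripts is often read beside the mitochondrial share as a mark of how much cytoplasmic RNA the droplet held. Gm26917 has no established function. It lies at a ribosomal RNA locus, where the 18S gene and the external transcribed spacer in front of it form a repeat that is present in many copies in the genome.

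In the GENCODE M21 annotation of GRCm38, Malat1 (ENSMUSG00000092341) lies on the minus strand at chr19:5795690-5802672 and Neat1 (ENSMUSG00000092274) on the minus strand at chr19:5824708-5845478, with 22035 bases between them. The longest transcript of each is 1 exon, of 6983 bases in Malat1 and 20771 in Neat1. The 2 sequences below are shown because they hold the parts the genes share. They are written 5′ to 3′ on the transcript strand, with the shared stretches in capitals. The Malat1 piece covers bases 6614 to 6713 of the transcript (chr19:5795960-5796059) and the Neat1 piece its last 100 bases (chr19:5824708-5824807).
Malat1: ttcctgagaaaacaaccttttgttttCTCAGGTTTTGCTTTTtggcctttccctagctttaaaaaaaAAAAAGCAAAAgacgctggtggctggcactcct
Neat1: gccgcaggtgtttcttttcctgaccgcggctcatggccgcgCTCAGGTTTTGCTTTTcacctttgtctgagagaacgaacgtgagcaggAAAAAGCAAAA
The first shared stretch, CTCAGGTTTTGCTTTT, was the longest match between the last 400 bases of the transcripts. Among 9101 annotated lincRNA transcripts it occurred in 2, which were these (0.022%), in 0 of 58797 protein-coding transcripts, and its reverse complement in 0 of either. The second, AAAAAGCAAAA, occurred in 27 lincRNA transcripts (0.297%; reverse complement 0.363%). These letters belong to the element known to fold into a triple helix that guards the 3′ ends of Malat1 and of the longest Neat1 transcript. Those ends carry no ordinary poly(A) tail. A shorter annotated Neat1 transcript of 3004 bases ends before the element, at chr19:5842307. The levels below are by gene and do not separate the Neat1 transcripts. In Malat1 the run of A is 12 bases long and starts at base 6674, and it is the single run of 8 or more A in that transcript. The longest Neat1 transcript has 0 such runs, and its longest is 7.

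Gm26917 lies on the plus strand at chr17:39843013-39846341, and its longest transcript is 1 exon of 3329 bases. Of its bases 69.1% are G or C, against 42.5% in Malat1 and 47.3% in Neat1, and its longest run of A is 4. Its last 80 bases (chr17:39846262-39846341) and the first 80 bases of the 18S sequence (chr17:39846353-39846432, read as the reverse complement of the annotated record CT010467.1) are shown because only 11 bases separate them.
Gm26917: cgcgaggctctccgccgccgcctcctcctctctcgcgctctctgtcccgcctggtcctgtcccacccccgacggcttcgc
18S: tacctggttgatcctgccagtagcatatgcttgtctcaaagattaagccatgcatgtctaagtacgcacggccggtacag
Gm42418 (chr17:39846958-39848788, plus strand) overlaps the 18S sequence, and 96.3% of its stretches of 31 bases are in that record on the opposite strand. AY036118 (chr17:39847113-39848035, minus strand) lies inside it. Reads from the many ribosomal copies cannot be told apart, and reads of Gm42418 and AY036118 can be told apart only by strand, so values of these genes are uncertain. Of the stretches of 31 bases in the longest Malat1 transcript, 2.42% also occurred in transcripts of other genes on the same strand, and 6.08% on the other strand, where the antisense transcript Gm37376 overlaps the gene. None of the stretches in Gm26917 did.

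Filters on detected genes (200 to 7500) and on the mitochondrial share (up to 25%) left 8654 WT and 5727 Postn-DTR cells, with medians of 5635 and 8472 UMIs. Cells were placed in classes by how many markers of a lineage they had, and each class is named after its markers. Of 54 checks with genes that entered no gate, 47 gave the highest level in their own lineage. Plasma cell-like cells were 6.12% of WT and 37.2% of Postn-DTR cells, and neutrophil-like cells 3.20% and 14.1%. Values over all cells of a library therefore mix the classes in unlike shares. The 15 classes with at least 40 cells in both libraries were compared. In 11 of them the median UMIs per cell were lower in Postn-DTR and in 3 higher, and in 13 the share of cells under 2000 UMIs was higher. The median mitochondrial share was lower in Postn-DTR in 14 of 15 classes, and the median share of ribosomal protein transcripts higher in 10. The libraries had 65 barcode sequences in common. The level of a gene in a class is the mean over its cells of UMIs per 10000 UMIs of the cell, unless summed UMIs are named.

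Among the 15 classes compared, the mean Neat1 level was highest in macrophage-like, neutrophil-like and monocyte-like cells in both libraries. In WT its level was 4.38 UMIs per 10000 in macrophage-like, 2.71 in monocyte-like, 2.61 in neutrophil-like and 2.30 in NK-like cells, and it lay between 0.598 in ILC2-like and 1.45 in the other classes. In Postn-DTR neutrophil-like cells (5.13) and macrophage-like cells (4.99) led these classes. Some classes with too few cells to compare stood above them, with 11.2 in the 25 stromal-like and 5.15 in the 11 pDC-like cells of Postn-DTR and 7.67 in the 28 mast cell- and basophil-like cells of WT. On summed UMIs the macrophage-like level stood above the next of the 15 classes in both libraries (3.39 with 95% interval 3.12 to 3.68 in WT, and 4.20 with 3.88 to 4.55 in Postn-DTR). In WT NK-like cells came second on summed UMIs (1.71), before monocyte-like (1.57) and neutrophil-like cells (1.44), with overlapping intervals. In Postn-DTR they stood above monocyte-like cells (2.34 and 2.04), again with overlap. In each library 12 of the 14 neighbouring pairs had overlapping intervals, so most of the order among lymphoid classes was not resolved.

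The median cell had no Neat1 UMI in the B2 B-like, B1 B-like, CD4 T-like and ILC2-like classes of both libraries. In NK-like, γδ T-like and CD8 T-like cells it was 0 in WT and 1.44, 1.17 and 1.01 in Postn-DTR. It was above 0 in both libraries in plasma cell-like cells, at 0.361 in WT and 0.824 in Postn-DTR, in neutrophil-like cells, at 1.20 and 3.02, in macrophage-like cells, at 2.33 and 2.53, and in monocyte-like cells, at 1.17 and 1.67.

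**Figure D1:**
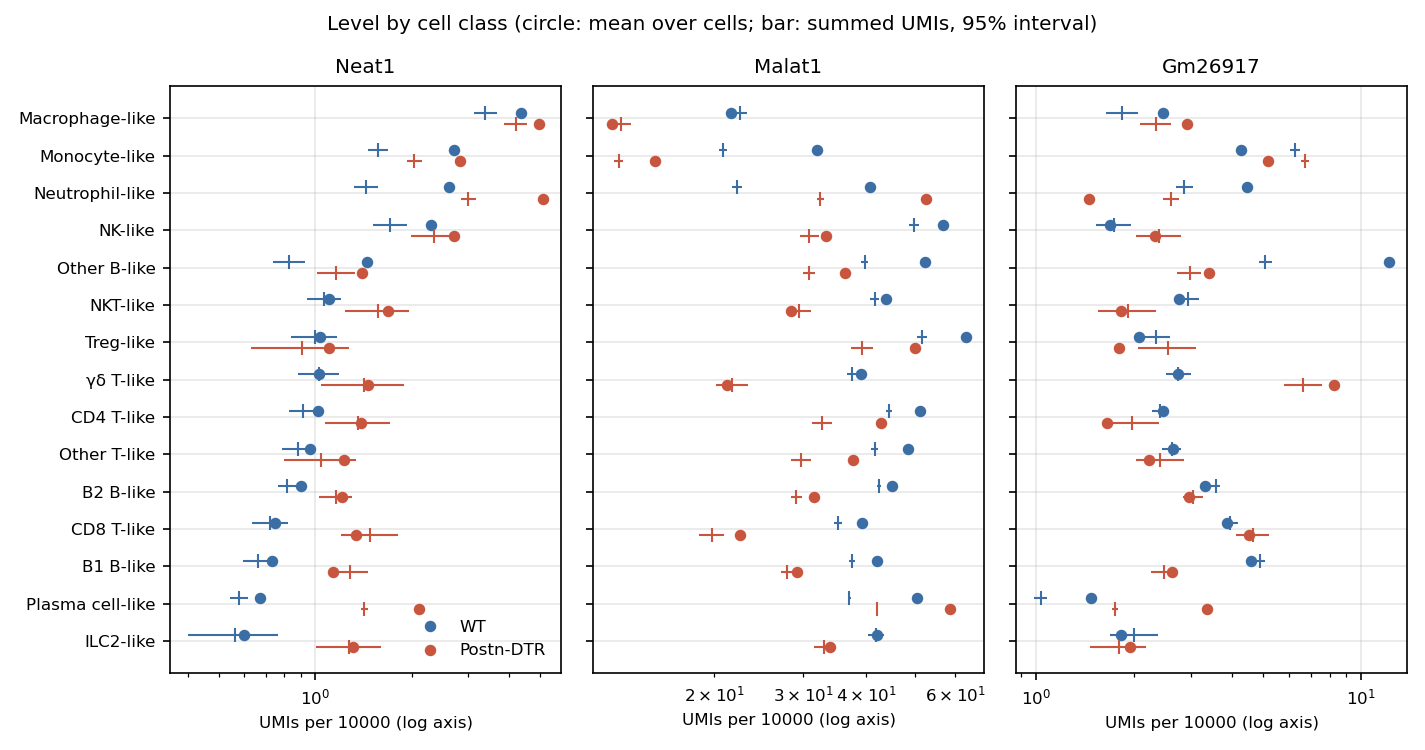
Levels of the 3 RNAs in the 15 classes, as UMIs per 10000 on a log axis. Circles are the mean over cells and bars the level from summed UMIs with its 95% counting interval, in blue for WT and red for Postn-DTR. By its bars Neat1 is highest in macrophage-like cells in both libraries, by its circles Malat1 is lowest there, and the Gm26917 circle for WT other B-like cells (12.2) stands far from its bar (5.06).

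Neat1 was higher in Postn-DTR than in WT in 14 of 15 classes, with a median log2 ratio of 0.44 over classes. Of the 1467 genes with at least 100 UMIs in every class, 56 (3.82%) were higher in at least that many classes. Neat1 was selected on such a difference, so its place among these genes is a description only. The level passed 1.5-fold upwards in 6 classes and downwards in 0. Over the 15 classes, 3.31% to 16.3% of all genes with at least 100 UMIs passed that size upwards. The largest ratio was in plasma cells, the antibody-secreting cells, where 0.673 in WT stood against 2.11 in Postn-DTR (log2 ratio 1.65). In this class 13.9% of genes passed 1.5-fold upwards. The other classes past that size were ILC2-like cells (0.598 and 1.32, log2 ratio 1.14, background 9.72%), neutrophil-like cells (2.61 and 5.13, 0.97, background 16.3%) and CD8 T-like cells (0.749 and 1.34, 0.84, background 7.8%). B1 B-like cells (0.734 and 1.14, 0.63, background 7.28%) and NKT-like cells (1.1 and 1.68, 0.61, background 4.79%) stood just past it.

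In the other B-like cells, which are B cells with neither the B1 nor the B2 set, the levels were 1.45 and 1.39 (log2 ratio -0.05). The classes Treg-like (1.04 and 1.101), monocyte-like (2.71 and 2.82) and macrophage-like (4.38 and 4.99) had ratios of 0.09, 0.05 and 0.19. On summed UMIs the counting interval of the ratio lay above 0 in 12 of 15 classes and below 0 in none, while those of Treg-like, other T-like and γδ T-like cells included 0. A single cell held 26.5% of all Postn-DTR Neat1 UMIs in B1 B-like cells and 23.2% in CD8 T-like cells. Without the highest cell of each library the ratios there were 0.47 and 0.54.

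Depth moved with the Neat1 result in neutrophil-like cells. Their median was 9689 UMIs per cell in WT and 3539 in Postn-DTR, and Neat1 was lower in deeper cells: from 6.86 at 2000 to 4000 UMIs to 0.838 above 16000 in WT, and from 5.61 to 1.02 in Postn-DTR. Depth bins were then given the same weights in both libraries, by the cells of both together, without bins of under 5 cells in either. With these weights the log2 ratio was 0.14, against 0.97 over all cells. In plasma cell-like cells the ratio was 1.52 with such weights. The level above 16000 UMIs was 0.564 in 484 WT cells and 1.36 in 1821 Postn-DTR cells.

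Malat1 took 38.3 of every 10000 UMIs in WT (95% interval 38.2 to 38.4) and 36.7 in Postn-DTR (36.5 to 36.8). Behind these close totals, it was lower in Postn-DTR in 13 of 15 classes, with a median log2 ratio of -0.53. It passed 1.5-fold downwards in 6 classes and upwards in 0. In B2 B-like cells the level was 45.0 in WT and 31.5 in Postn-DTR (log2 ratio -0.51), and in B1 B-like cells 42.1 and 29.2 (-0.53). γδ T-like cells went from 39.2 to 21.2 (-0.89, where 16.7% of genes passed 1.5-fold downwards) and CD8 T-like cells from 39.3 to 22.5 (-0.81, background 9.98%). NK-like cells had 56.8 and 33.4 (-0.77, background 8.16%), and NKT-like cells 43.7 and 28.4 (-0.62, background 9.69%).

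Of the 15 classes, macrophage-like and monocyte-like cells had the lowest mean Malat1 levels. On summed UMIs WT neutrophil-like cells (22.2) stood beside macrophage-like cells (22.6), and among the small classes WT mast cell- and basophil-like (161.9) and migratory DC-like cells (132.9) were far higher. In macrophage-like cells the level was 21.6 in WT and 12.6 in Postn-DTR (-0.78, background 18.2%), where the median gene stood at -0.15. In monocyte-like cells it was 32.0 and 15.3 (-1.07, background 14.3%, median gene -0.10). A single WT monocyte-like cell of 1845 UMIs with 1784 Malat1 UMIs per 10000 carried part of that value, and without the highest cell of each library the ratio was -0.75. The ratio of medians over cells was -1.21 in macrophage-like and -0.78 in monocyte-like cells.

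Of the 1467 genes measured in every class, 217 (14.8%) were higher in Postn-DTR in at most 2 classes, as Malat1 was. Malat1 was thus not alone in its direction across classes. On summed UMIs the interval of the ratio lay below 0 in 13 classes and above 0 in 2. Regulatory T-like cells had the highest WT level among the classes compared (63.2, and 49.95 in Postn-DTR, -0.34), and the smallest of the 13 lower ratios was in CD4 T-like cells (51.3 and 42.8, -0.26).

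The 2 classes with more Malat1 in Postn-DTR were neutrophil-like (40.8 and 52.5, log2 ratio 0.36) and plasma cell-like cells (50.4 and 58.8, 0.22). In neutrophil-like cells the direction turned when depth was held equal. At 2000 to 4000 UMIs the Malat1 level was 85.2 in 36 WT cells and 63.2 in 312 Postn-DTR cells. At 4000 to 8000 it was 39.7 in 63 and 33.6 in 202 cells, and at 8000 to 16000 it was 20.9 in 93 and 14.5 in 80 cells. Only above 16000 was it higher in Postn-DTR, at 18.3 against 15.4. With the same depth-bin weights in both libraries the log2 ratio was -0.66. In plasma cell-like cells the ratio was 0.01 with such weights, with 40.4 against 34.8 above 16000 UMIs and 47.5 against 51.8 at 8000 to 16000.

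Held within 4000 to 8000 UMIs per cell, Malat1 was lower in Postn-DTR in 15 of 15 classes (median log2 ratio -0.57), and within 8000 to 16000 in 13 of 13. Neat1 was higher in 13 of 15 (0.60) and in 10 of 13 (0.72). The other bins were less uniform. Neat1 was higher in 5 of 9 classes under 2000 UMIs (median log2 ratio 0.56), in 10 of 14 at 2000 to 4000 (0.13) and in 9 of 11 above 16000 (0.45). Malat1 was lower in 9 of 9 (-0.91), 13 of 14 (-0.45) and 7 of 11 (-0.36). Within bins the share of all genes with such counts was not computed, so how common they are is not known.

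**Figure D2:**
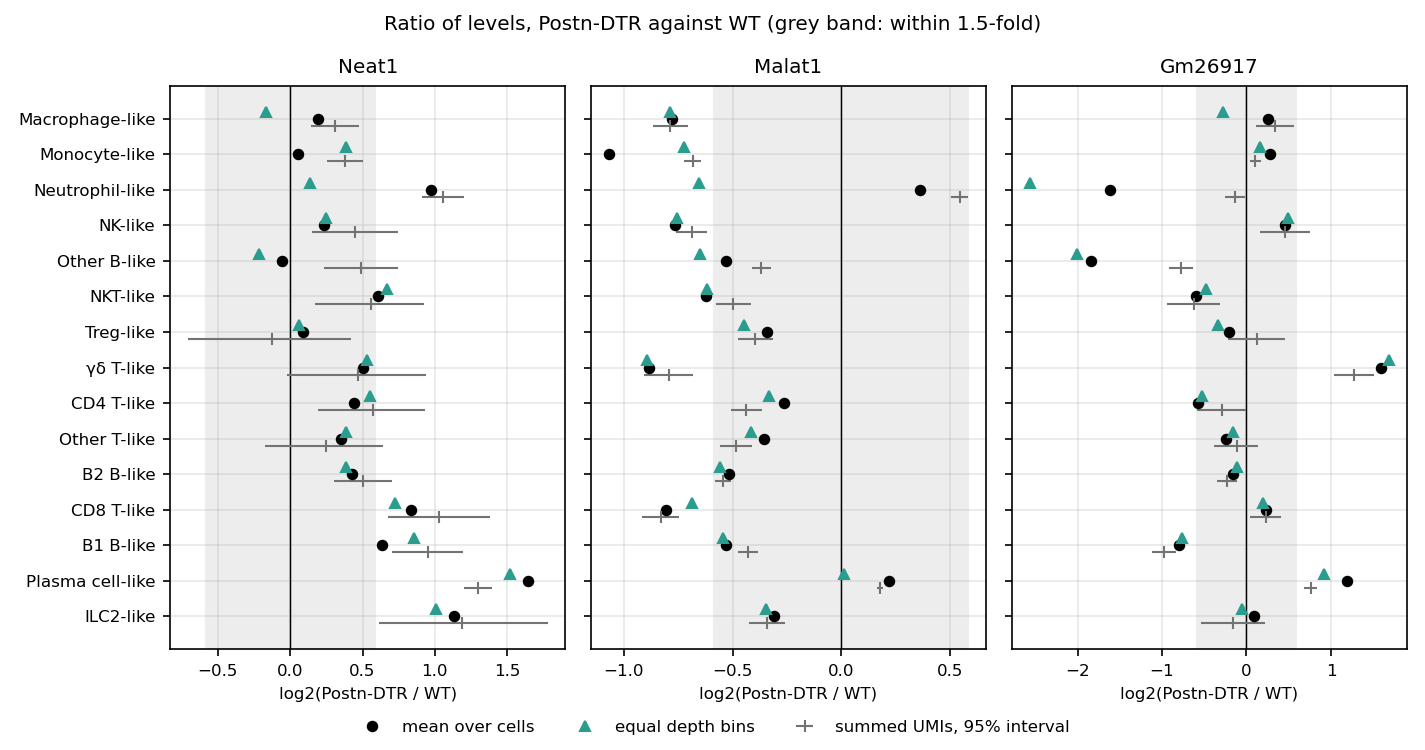
Log2 ratio of the level in Postn-DTR to that in WT for each class. Black circles are means over cells and grey bars summed UMIs with the 95% counting interval. Green triangles (equal depth bins) are means with each depth bin given the same weight in both libraries. The grey band is 1.5-fold. Neat1 lies right of 0 in 14 of 15 classes and Malat1 left of 0 in 13, and the Malat1 triangle for neutrophil-like cells (-0.66) lies on the other side of 0 from its circle (0.36).

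Gm26917 had no common direction. It was higher in Postn-DTR in 7 of 15 classes and lower in 8, with a median log2 ratio of -0.16, and 769 of 1467 genes (52.4%) were higher in at least that many. In B2 B-like cells the level was 3.30 in WT and 2.95 in Postn-DTR (-0.16). In B1 B-like cells it was 4.56 and 2.61 (-0.80, where 8.49% of genes passed 1.5-fold downwards), and the ratio lay between -0.97 and -0.60 in all 13 alternatives. Plasma cell-like cells differed the other way, with 1.48 and 3.36 (1.19, where 13.9% passed upwards), and the ratio lay between 0.62 and 1.27 in the alternatives.

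Several other Gm26917 ratios past 1.5-fold depended on single cells. In γδ T-like cells (2.74 and 8.24, log2 ratio 1.59, background 7.82%) 1 of the 47 Postn-DTR cells held 54.8% of the UMIs, and without the highest cell of each library the ratio was 0.30. In neutrophil-like cells (4.45 and 1.45, -1.62, background 13.7%) it was -0.22 without those cells and -0.14 on summed UMIs. In the other B-like cells (12.2 and 3.40, -1.84, background 9.33%) the WT mean was raised by 2 cells of 673 and 500 UMIs, with 2272 and 1460 Gm26917 UMIs per 10000, and the ratio of medians was -0.35. Summed UMIs still passed 1.5-fold there, at 5.06 and 2.96 (-0.77, interval -0.91 to -0.63). NKT-like cells had 2.75 and 1.82 (-0.60, background 9.69%), with 2.94 and 1.91 on summed UMIs and no more than 6.22% of the UMIs in 1 cell.

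Mean levels of all 3 RNAs were high in the shallowest cells. Among WT cells under 2000 UMIs the mean Malat1 level was 195.1, against 45.0 at 4000 to 8000 UMIs and 32.7 above 16000, and in Postn-DTR it was 142.5, 34.5 and 36.6. Neat1 went from 5.78 to 1.04 and 0.890 in WT and from 8.47 to 2.29 and 1.38 in Postn-DTR. Gm26917 went from 27.2 to 2.80 and 2.48 in WT and from 18.2 to 3.34 and 2.09 in Postn-DTR. Within classes, Malat1 was higher under 2000 UMIs than at 4000 to 8000 in 12 of 12 WT and 11 of 11 Postn-DTR classes with at least 5 cells in both bins, Neat1 in 10 of 12 and 9 of 11, and Gm26917 in 10 of 12 and 8 of 11.

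The shallow cells were not alike. The median Gm26917 level under 2000 UMIs was 0 in both libraries, and the median Malat1 level was 71.2 in WT and 44.7 in Postn-DTR. The means were thus raised by a part of the cells. Over all depths, in classes with at least 100 cells, Gm26917 rose with UMIs per cell by rank. Its Spearman rho was above 0 in 15 of 15 WT and 9 of 10 Postn-DTR classes (median 0.167 in each library). Neat1 was above 0 in 11 of 15 and 7 of 10, and Malat1 in only 3 of 15 and 2 of 10. Cells under 2000 UMIs also had low ribosomal protein shares, with a median of 17.3% in WT and 8.29% in Postn-DTR. At 4000 to 8000 UMIs the medians were 26.3% and 24.3%. Of the 343 WT and 449 Postn-DTR cells under 2000 UMIs, 13 and 152 were neutrophil-like. That class had median ribosomal protein shares of 2.70% and 3.24% over all depths.

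Plasma cell-like cells had far higher mean levels in the shallow bins. Their Malat1 level was 797.2 in the 36 Postn-DTR cells under 2000 UMIs, 298.1 at 2000 to 4000, 152.2 at 4000 to 8000 and 40.4 above 16000. Neat1 took the values 28.8, 15.7, 5.14 and 1.36 in the same bins, and Gm26917 57.2, 48.5, 17.95 and 1.499. In WT, with 6, 6 and 5 cells in the lowest bins, Malat1 was 977.6 under 2000 UMIs and 34.8 above 16000. The ribosomal locus genes followed, with Gm42418 at 446.4 under 2000 and 137.2 above 16000 UMIs in Postn-DTR, and AY036118 at 42.1 and 8.52.

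Above 4000 UMIs the class counts by bin were less uniform for Gm26917 than for Malat1. From 4000 to 8000 UMIs to the bin above 16000, Malat1 was lower in deeper cells in 10 of 11 WT and 11 of 12 Postn-DTR classes. Gm26917 was higher in deeper cells in 8 of 11 WT classes (median log2 ratio 0.39) but in only 5 of 12 Postn-DTR classes (-0.14). The difference between the libraries was not tested, and the classes counted were not the same. By rank correlation with UMIs per cell the libraries were close, with a median Gm26917 rho of 0.167 in each over all depths. At 4000 to 8000 UMIs it was 0.057 in WT and 0.050 in Postn-DTR. In neutrophil-like cells Gm26917 climbed from 0.322 at 2000 to 4000 UMIs to 3.40 above 16000 in WT and from 0.308 to 4.47 in Postn-DTR, the reverse of Malat1 and Neat1 there.

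**Figure D3:**
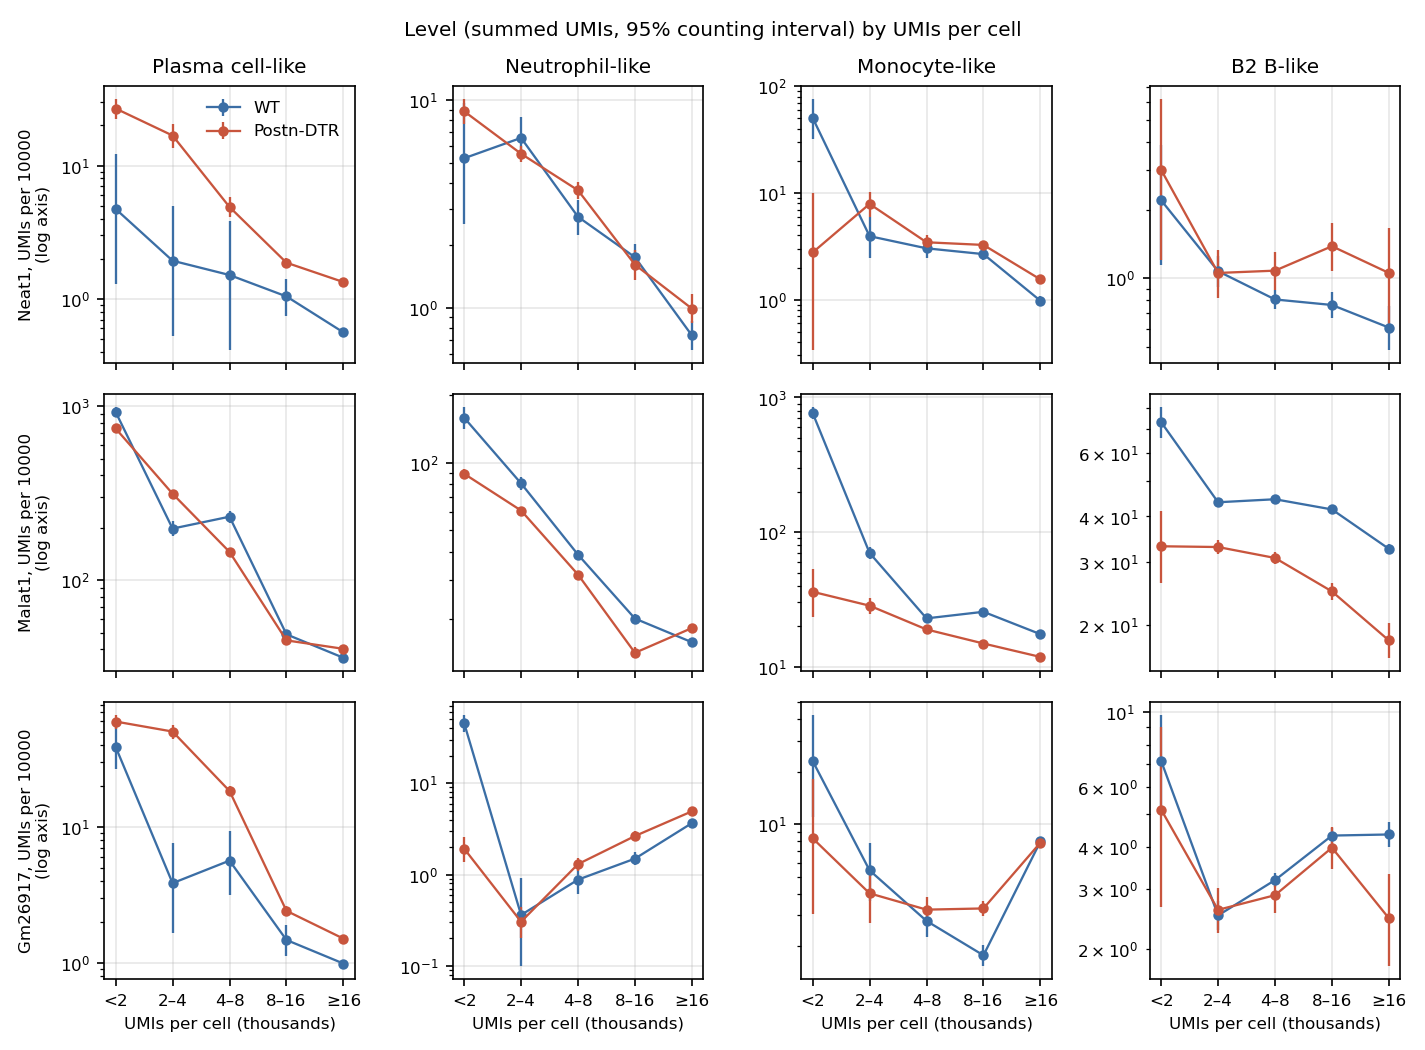
Levels from summed UMIs with 95% counting intervals (log axis) by UMIs per cell, in 4 classes, for WT in blue and Postn-DTR in red. In plasma cell-like cells all 3 RNAs are highest in the shallowest bins. In neutrophil-like cells Malat1 and Neat1 are lower in deeper cells, while Gm26917 is higher from 2000 UMIs on.

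The B2 B-like cells, for which Gm26917 was put on the list, had 7.93 Gm26917 UMIs per 10000 in the 37 WT cells under 2000 UMIs and 5.44 in the 15 Postn-DTR cells. From 39 and 12 UMIs, the summed levels were 7.18 (95% interval 5.10 to 9.81) and 5.15 (2.66 to 9.003). At 2000 to 4000 UMIs the means were 2.51 and 2.55, at 4000 to 8000 they were 3.13 and 2.92, and at 8000 to 16000 they were 4.38 and 4.13. Under 4000 against 4000 and more, the WT levels were 2.89 and 3.46 (log2 ratio -0.26) and the Postn-DTR levels 2.74 and 3.16 (-0.20). In these cells, then, the highest mean stood in the bin under 2000 UMIs, and the libraries were close from 2000 to 16000 UMIs.

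Within that bin a few cells held it. Of the 37 WT B2 B-like cells under 2000 UMIs, 24 had no Gm26917 UMI and 8 had 10 or more per 10000. A single UMI reaches that cut in a cell of up to 1000 UMIs, so the cut is tied to depth. The median was 1016 UMIs in the 8 and 1552 in the 24. Those 8 had a median ribosomal protein share of 3.71% against 26.4% in the 24, a median mitochondrial share of 9.92% against 2.89%, and a median Malat1 level of 136.7 against 21.8. The B cell receptor gene Cd79a, which entered no gate, was detected in 50% and 100% of them. The 15 Postn-DTR B2 B-like cells did not show this pattern. Their 5 cells with 10 or more per 10000 had a median ribosomal protein share of 21.2% against 28.3% in the 9 with none, a mitochondrial share of 2.60% against 2.33%, a lower Malat1 level (12.8 against 37.8), and Cd79a in 80% against 100%. Over all B-lineage classes, 21 of 69 WT cells under 2000 UMIs had 10 or more per 10000, with Cd79a in 28.6% and a median of 707 UMIs, and 10 of 43 Postn-DTR cells, with Cd79a in 60%. In the 39 and 28 cells with none, Cd79a was detected in 89.7% and 92.9%. The median UMIs of the rich and the empty WT cells differed (707 and 1480). The part of depth in the ribosomal protein, mitochondrial, Malat1 and Cd79a differences was not tested.

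Markers of other cells in the shallow B2 B-like cells had no common direction. In WT, T cell markers summed to 0.399 UMIs per 10000 under 2000 UMIs, 0.160 at 2000 to 4000 and 0.483 at 4000 and more, and in Postn-DTR to 0, 0.141 and 0.0276. Neutrophil markers summed to 0.136, 0.384 and 2.09 in WT and to 4.64, 0.947 and 12.5 in Postn-DTR. Macrophage markers summed to 0, 0.107 and 0.213 in WT and to 2.16, 0.382 and 0.582 in Postn-DTR, where the shallow bin was the highest. Plasma cell markers summed to 5.31, 3.70 and 4.70 in WT and to 4.16, 4.19 and 6.17 in Postn-DTR, and B cell markers to 54.0, 46.4 and 45.7 in WT and 37.0, 38.3 and 41.2 in Postn-DTR. Their part in the Gm26917 levels was not tested.

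Mean levels of all 3 RNAs were high in the few cells with a high mitochondrial share. In WT the Malat1 level was 40.7 in cells with 0 to 2% mitochondrial UMIs, 44.5 at 2 to 4%, 73.4 at 4 to 6%, 152.4 at 6 to 10% and 452.3 at 10 to 25%. In Postn-DTR the series was 40.04, 33.8, 76.0, 144.5 and 400. Gm26917 was 2.41 at the lowest share, 46.3 at 6 to 10% and 35.9 at the highest in WT, and 2.15, 15.2 and 81.2 in Postn-DTR. Single cells carried part of these means. In WT an other B-like cell with 2272 per 10000 and a neutrophil-like cell with 784.2 fell in the 6 to 10% bin. In Postn-DTR a DC-like cell with 2627 fell in the highest bin. Means of the bins without these cells were not computed. Neat1 was 1.28 and 12.6 in WT, and 2.29 and 16.7 in Postn-DTR. The 96 WT and 79 Postn-DTR cells of the highest bin were shallow, with medians of 796 and 1194 UMIs. In the 4 classes with at least 5 cells in the highest and the lowest bin, each RNA was higher in the highest bin in 4 of 4, in both libraries. Over all cells of a class the rank correlation with the mitochondrial share was weak. In WT and Postn-DTR the median rho was 0.025 and 0.045 for Neat1, 0.078 and 0.0325 for Malat1, and 0.0445 and 0.083 for Gm26917. WT neutrophil-like cells held both ends of the range, -0.23 for Neat1 and 0.44 for Gm26917.

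**Figure D4:**
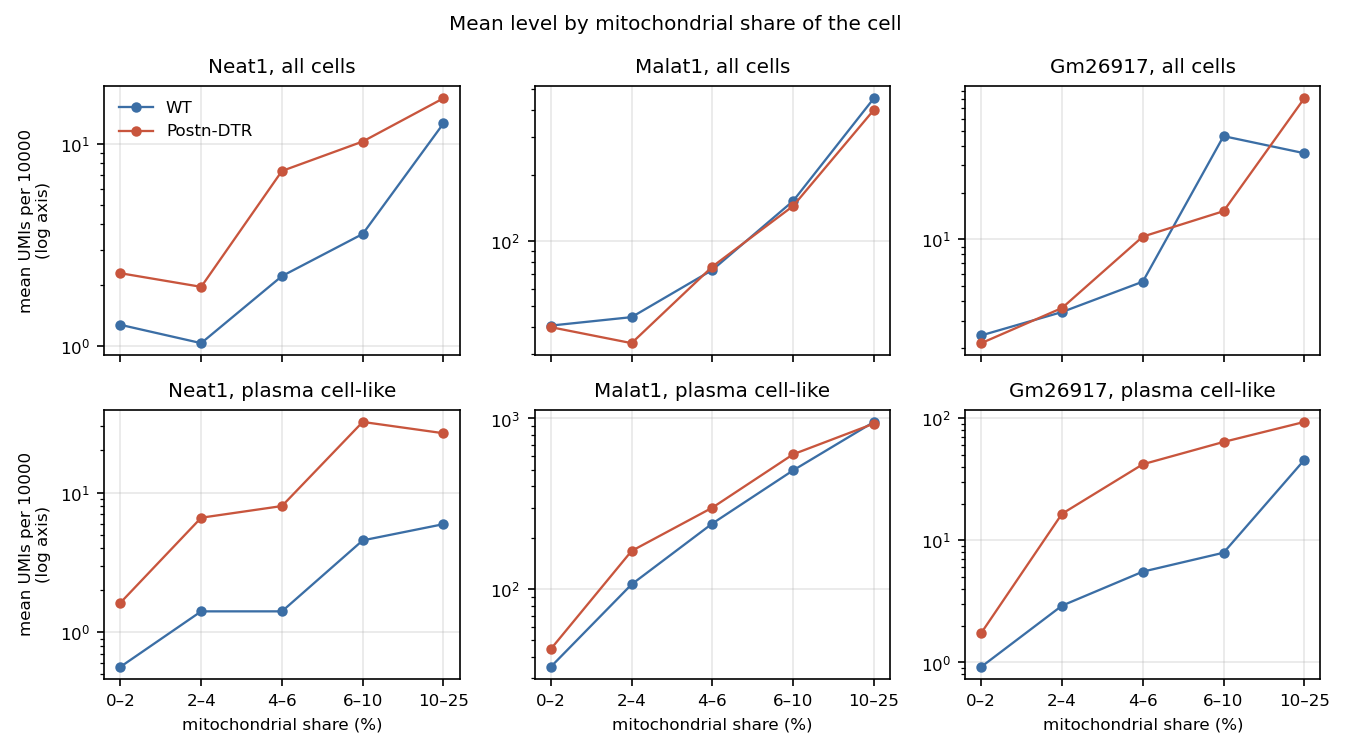
Mean level (log axis) by mitochondrial share of the cell, over all cells and in plasma cell-like cells, for WT in blue and Postn-DTR in red. Over all cells, Malat1 and Neat1 are highest above 10% mitochondrial UMIs in both libraries (Malat1 452.3 in WT), while WT Gm26917 is highest at 6 to 10% (46.3). That WT bin holds a cell with 2272 Gm26917 UMIs per 10000, which raises its mean.

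Cells that spent a large share of their UMIs on these RNAs were few. Malat1 took at least 5% of the UMIs of 43 WT cells, of which 41 had under 2000 UMIs and 21 had no class. It did so in 33 Postn-DTR cells, of which 28 had under 2000 and 25 were plasma cell-like. Of all WT cells 4.36% had no class, and of all Postn-DTR cells 37.2% were plasma cell-like. The cells past 5% Malat1 had a median ribosomal protein share of 1.60% in WT and 1.79% in Postn-DTR, against 24.4% and 13.9% in the remaining cells. The highest Malat1 share was 19.6%, in a Postn-DTR plasma cell-like cell of 1100 UMIs that also had the highest Neat1 level of that library, 199.9 per 10000.

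Gm26917 took at least 1% of the UMIs of 20 WT and 21 Postn-DTR cells, which held 3.34% and 7.10% of its UMIs. The highest share was 26.3%, in a Postn-DTR DC-like cell of 727 UMIs and 253 genes whose mitochondrial share was 17.1%. That cell also had 1582 Gm42418 UMIs per 10000, and the cells past 1% had a median of 448.8 in WT and 479.6 in Postn-DTR, against 132.5 and 121.0 in the others. Of the 20 and 21 cells, 6 (30.0%) and 8 (38.1%) also passed 5% Malat1, which is 14.0% and 24.2% of the cells past that Malat1 share.

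The level of Gm26917 was the most concentrated of the 3. The 1% of cells with the most held 32.3% of its summed level in WT and 41.3% in Postn-DTR. For Malat1 these shares were 12.3% and 18.1%, and for Neat1 21.1% and 18.7%.

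Across the cells of a class, at 4000 to 8000 UMIs and in classes with at least 100 such cells, Malat1 correlated negatively with the ribosomal protein share in 9 of 9 WT classes (median Spearman rho -0.33, range -0.48 to -0.10) and in 3 of 3 Postn-DTR classes (median -0.33). For Neat1 the medians were -0.11 and -0.21. With the mitochondrial share, Malat1 had medians of 0.0053 and 0.062 in these cells. Neat1 and Malat1 correlated weakly and positively in all of them, with medians of 0.14 and 0.26. All points share a library and a total, and these values are descriptions.

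The ribosomal locus genes split between the members. At 4000 to 8000 UMIs, Gm26917 went with Gm42418 (median rho 0.23 in WT and 0.27 in Postn-DTR, above 0 in 9 of 9 and 3 of 3 classes) and hardly with AY036118 (0.0011 and 0.09). Malat1 went with AY036118 (0.30 and 0.25, above 0 in 9 of 9 and 3 of 3) and little with Gm42418 (0.015 and 0.044). Gm26917 and Gm42418 are annotated on the plus strand of that locus and AY036118 on the minus strand.

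Over 33 combinations of class and library with at least 50 cells, the genes whose level was most like that of Neat1 were Fcgr3 (Pearson r 0.84), Itgam (0.83), Emilin2 (0.81), Ccl6 (0.81) and Wfdc17 (0.80), of 2964 genes. Fcgr3 and Itgam encode an Fc receptor and an integrin chain of myeloid cells. For Malat1 the highest was Spint2 (0.58) and for Gm26917 Dynll1 (0.54). Neat1 and Malat1 themselves stood at -0.46, and Gm26917 and Gm42418 at -0.06. The 2 libraries share each class, so these points are not independent.

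Among 21 of the 24 other long noncoding RNAs listed that reached 100 UMIs in at least 1 class, 26 of 179 pairs of gene and class (14.5%) passed 1.5-fold upwards in Postn-DTR and 20 (11.2%) downwards. Over all genes the median share of a class was 7.82% upwards and 10.5% downwards (ranges 3.31% to 16.3% and 7.07% to 18.2%), so both shares lay within the range of the classes. The median over classes of the list's median log2 ratio was 0.11. Xist, which silences an X chromosome in female cells, was lower in Postn-DTR in 15 of 15 classes (median log2 ratio -0.42), and Kcnq1ot1, which silences imprinted genes in cis, in 11 of 13 (-0.43). Dleu2, a host of microRNAs, was the lowest of the list at -0.69 over 9 classes, and Snhg20 the highest at 0.45 over 8. Gas5 and Snhg1, hosts of small nucleolar RNAs, were higher in 13 and 11 of 15 classes (0.21 and 0.20). Of the 1467 genes measured in every class, 14.8% were higher in at most 2 classes and 3.82% in at least 14. For other class counts of companion genes, here and below, the share of all genes was not computed.

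Of 181 pairs over the 14 paraspeckle proteins, 4 (2.21%) passed 1.5-fold upwards and 15 (8.29%) downwards. Both shares lay below those all-gene medians, and the list's median was -0.02. The all-gene shares were not matched to the level of the listed genes, so whether these lists moved less than like genes is not known. Sfpq was higher in Postn-DTR in 13 of 15 classes (median log2 ratio 0.24, highest 0.58), and Cpsf6, a subunit of a cleavage factor that acts on Neat1, in 12 of 15 (0.25). Nono, the usual partner of Sfpq in the body, was lower in 13 of 15 (-0.24), and Hnrnph3 had the lowest median at -0.32 over 10 classes. Of the genes measured in every class, 14.8% were higher in as few classes as Nono or fewer, so Nono was not alone in its direction. For the 14 nuclear speckle proteins, 4 of 208 pairs (1.92%) passed upwards and 11 (5.29%) downwards, also below the all-gene medians, with a median of -0.08. Son, a core protein of the speckle, was lower in 14 of 15 classes (-0.26) and Srrm2, the other, in 9 (-0.01). Srsf6 had the lowest median (-0.34) and Srsf7 the highest (0.23, higher in 14 of 15, as were 3.82% of genes measured in every class in at least that many).

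The ribosomal locus genes showed no common shift, with Gm42418 higher in 9 of 15 classes (median log2 ratio 0.01) and AY036118 in 8 of 15 (0.01). Lars2, a mitochondrial leucyl-tRNA synthetase gene listed with them, was lower in 12 of 15 (-0.13). Among the genes listed for RNA quality and cell handling, Hspa1b and Hspa1a, heat shock genes that respond to tissue dissociation, had medians of -2.86 over 4 classes and -1.71 over 3. Fos and Jun were higher in 8 of 15 classes each (0.08 and 0.03). Their part in the differences of Neat1 and Malat1 was not tested.

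**Figure D5:**
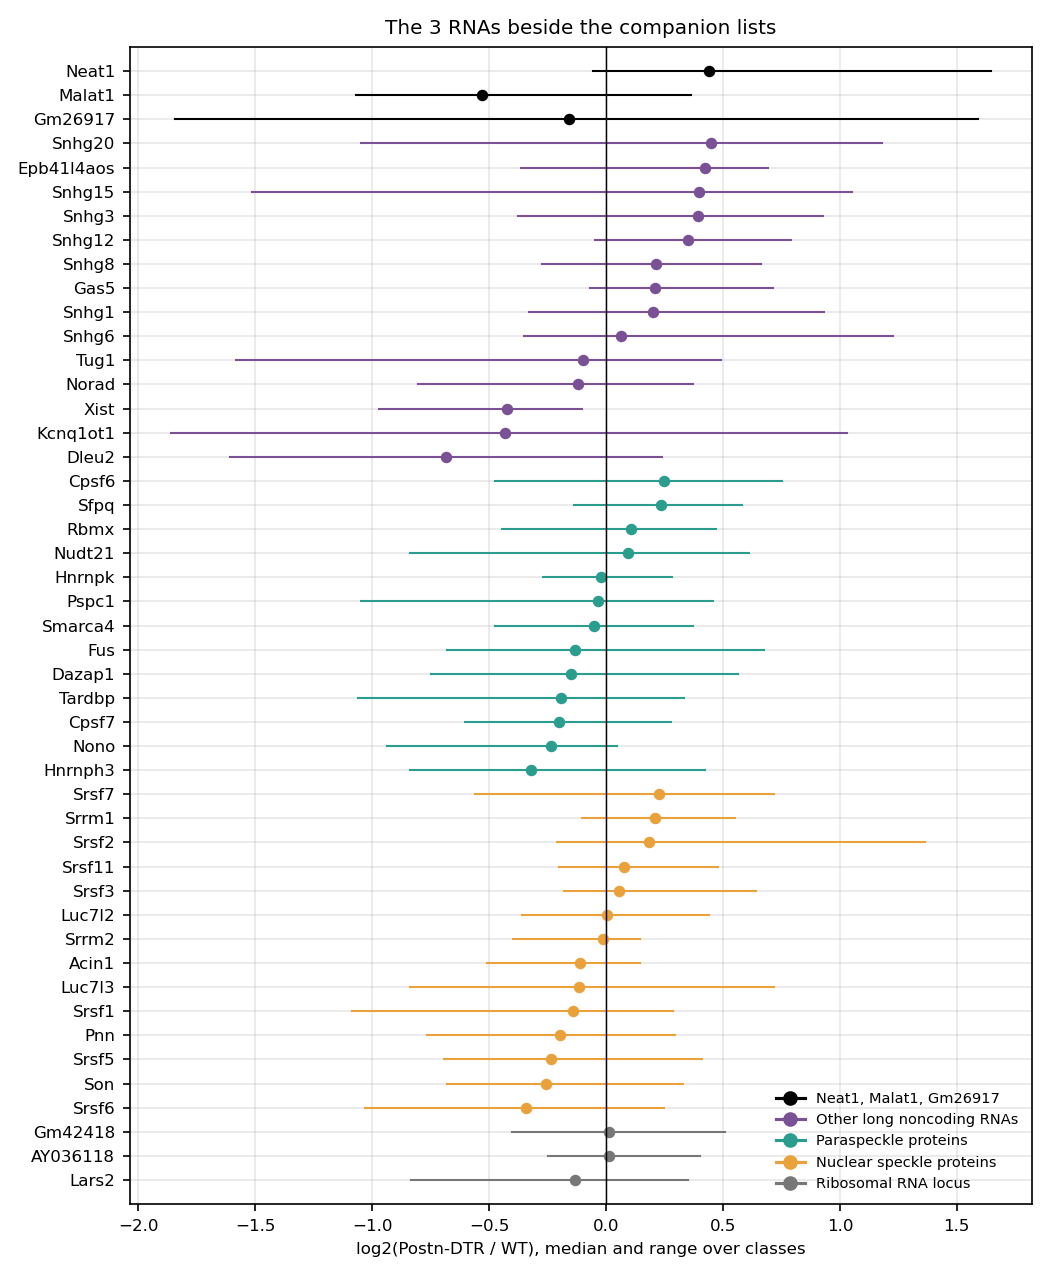
Median (point) and range (line) over classes of the log2 ratio of Postn-DTR to WT for Neat1, Malat1 and Gm26917 in black and for companion genes with at least 100 UMIs in 8 or more classes. The medians of Neat1 (0.44) and Malat1 (-0.53) lie beyond those of all 14 nuclear speckle proteins and all 13 paraspeckle proteins drawn. Among the noncoding RNAs, Snhg20 (0.45) and Dleu2 (-0.69) reach as far. Neat1 was selected for having been higher in 1 library of these same cells, so its place beside unselected genes is a description only.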

How the data were processed

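The authors deposited, per library, a matrix of natural log values, ln(1 + UMIs per 10000 of the cell). The submitters' processing notes name Cell Ranger 6.0.0 and mm10 and the labels a 5′ kit, while the study's methods name an earlier Cell Ranger and a 3′ kit, so which end was read is open. Whole UMIs were recovered from the deposited log values: within 0.1 of a whole number, 99.95% came out whole in WT and 99.89% in Postn-DTR. Of 19960 genes, 19950 identifiers matched GENCODE M21. Total UMIs were 80152113 in WT and 81011255 in Postn-DTR.

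Cells took the class of the lineage with the largest part of its marker list detected, with at least 2 markers and no tie. The scoring rule was set after the data were seen, and the members, marker lists and companion lists were chosen with earlier results of these data known. Doublets were called with Scrublet in scanpy 1.11.5 at a score of 0.25, set after the automatic threshold had called almost none (136 cells in WT, 106 in Postn-DTR). They stayed in, except in 1 alternative. With 1 library per group no test was run. Genes with at least 100 UMIs in a class entered the background, and a difference of 1.5-fold was counted. The background was not matched for level, and Malat1 stood far above that cut, with 11945 UMIs in WT and 1268 in Postn-DTR CD8 T-like cells. Summed UMIs have exact Poisson intervals, and ratios of them exact conditional intervals, at 95%. The text names the 3 members, the companion genes with the highest and lowest ratio or a known role, and the 5 genes most alike per member for Neat1 (the highest for the others), by log2(level + 0.1) among genes with a mean level of at least 0.5. Thinning kept 1000 UMIs per cell and left out shallower cells. The scripts were tested on simulated counts. Of genes simulated without a change, 7.14% in CD8 T-like, 3.58% in B2 B-like and 1.56% in plasma cell-like cells passed 1.5-fold in either direction. Analyses used Python 3.11.15, numpy 2.4.6 and scipy 1.17.1.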

Additional observations from a re-analysis of the deposited data

Results flagged for a closer look

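Malat1 was higher in Postn-DTR in neutrophil-like cells (log2 ratio 0.36) and plasma cell-like cells (0.22) and lower in the other 13 classes, with ratios there from -1.07 to -0.26. The difference between the classes was not tested.

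Gm26917 had log2 ratios of 1.59 in γδ T-like and 1.19 in plasma cell-like cells, against -1.84 in other B-like cells, and this difference was not tested.

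Cells and classes outside the comparison also held these RNAs. The 377 WT cells with no class had a mean Malat1 level of 107.5 UMIs per 10000, and 77 of them had under 2000 UMIs. The 16 Postn-DTR DC-like cells had a mean Gm26917 level of 165.2 with a median of 1.01, and 1 cell held 92.7% of the UMIs. The 25 Postn-DTR stromal-like cells had a mean Neat1 level of 11.2 and a median of 3.21, against 1.91 and 0.731 in 46 WT cells, and 1 cell held 28.1% of those UMIs.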

How the results depend on the processing

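No paired analysis was possible because each group had 1 library. Over the 11 alternatives set with the design and the 2 added after the data were seen, the number of classes with more Neat1 in Postn-DTR was 13 to 15, except for the median over cells, where it was 7 because both medians were 0 in 8 classes. For Malat1 the count was 2 throughout, except 1 with the same depth-bin weights in both libraries, where neutrophil-like cells turned. For Gm26917 it was 5 to 8, and 4 for the median over cells, with 3 ties. In WT B2 B-like cells the log2 ratio of Gm26917 under 4000 UMIs against 4000 and more was -0.48 on summed UMIs and -0.47 without cells under 2000 UMIs. The companion lists' medians moved by less than 0.1. Thinning to 1000 UMIs turned Neat1 in CD4 T-like (-0.65) and Treg-like cells (-0.79). The 47 to 92 cells of some Postn-DTR classes and the single library per group limit every comparison.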
